A study of Mus musculus with 4 samples.

Results

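The genes described here are the well expressed Zfp genes of the mouse, most of which encode zinc finger proteins. Members were chosen by name and by level. A gene was a member if its name was Zfp followed by digits, with a final letter allowed, and if it had at least 50 normalized counts in all 4 libraries. The rule took 294 of the 400 Zfp-named genes in a table of 48178 genes. Of the other Zfp genes, 57 were tested but were under this level in at least 1 library, and 49 were too low to be tested. Members were thus selected on their normalized counts in all 4 libraries, so their level is not a finding. The threshold also keeps out genes that are very low in either group. A normalized count is the number of reads of a gene divided by a size factor of its library.

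RNA was sequenced from neurospheres, free-floating balls of neural stem and progenitor cells with some of their progeny, grown from the hippocampus of newborn (P0) C57BL/6 mice and harvested on the seventh day of culture with FGF-2 and EGF. There were 2 libraries labelled FGF13Aoe, of the genotype hGFAPCre+, ROSA26FGF13A LSL/+, and 2 libraries labelled control, of the genotype hGFAPCre+, ROSA26FGF13A +/+, from littermates. Both groups thus carry the Cre transgene, and what differs is the FGF13A allele at ROSA26, whose LSL (a stop cassette between loxP sites) is removed by Cre. By its name the transgene is driven by a human GFAP promoter, so only cells in which that promoter has been active, and their descendants, can express the allele. The cells of each mouse were plated into a pair of wells, and it is not stated whether separate pups gave the 2 libraries of a group. P-values therefore measure the spread between these libraries, which may be technical.

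A C2H2 zinc finger is a short loop of protein that holds a zinc ion with a pair of cysteines and a pair of histidines, and arrays of fingers read DNA, or in some proteins RNA. Many Zfp genes of mammals encode a KRAB domain as well, which recruits the corepressor Trim28 (KAP1) and through it the histone methyltransferase Setdb1 and heterochromatin proteins, a machinery best known for the silencing of retroelements and for the protection of imprints. Others have no KRAB domain and act as lineage factors, parts of chromatin complexes or regulators of mRNA. KRAB genes sit in tandem clusters that grew by duplication.

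The libraries held between 9724413 and 14092685 reads in genes. Fgf13, the gene placed at ROSA26, had 5410 and 4447 normalized counts in FGF13Aoe libraries, against 772 and 769 in control libraries, a log2 change of 2.67 with a standard error (SE) of 0.14 and a limma adjusted p of 0.00111, from 2 libraries a group as in all comparisons below. Cell type markers moved as well. The summed normalized counts of 8 astrocyte markers were 248674 and 246626 in FGF13Aoe libraries, against 78912 and 53439 in control libraries. Those of 10 markers of the oligodendrocyte lineage were 52134 and 57870, against 23919 and 29533. The sums of 10 neuronal markers were 11924 and 14818 in FGF13Aoe libraries, against 42938 and 33582 in control libraries. Those of 8 proliferation genes were 5314 and 7574, against 12291 and 16321. The sums of 10 neural progenitor markers, the labelled cell type, overlapped, at 86257 and 93064 against 88435 and 92042. Called changes were 5 of 8 up for astrocytes, 5 of 10 up for the oligodendrocyte lineage, 8 of 10 down for neurons, 6 of 8 down for proliferation, and 5 up with 1 down of 10 for progenitors. The 6 listed markers of microglia summed to 33 and 60 in FGF13Aoe libraries, against 131 and 101 in control libraries. The 6 of endothelium and pericytes summed to 253 and 205, against 586 and 485. In each of these 2 lists 4 genes were tested. No listed marker was at 0 in all 4 libraries. In bulk RNA, fewer cells of a type and less RNA per cell cannot be told apart, and the part of these shifts in the values below was not tested.

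Most members had higher normalized counts in FGF13Aoe libraries. The median member had 282 and 293 normalized counts in FGF13Aoe libraries, against 216 and 217 in control libraries. All members together held 1.11% and 1.24% of normalized counts in FGF13Aoe libraries, against 0.96% and 0.929% in control libraries. Both FGF13Aoe totals lay above both control totals.

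The log2 change, FGF13Aoe over control, was above 0 for 245 of the 294 members, where 49.5% of all tested genes and 50.3% of genes at the members' level were above 0. The median change of the members was 0.39, with quartiles at 0.10 and 0.60, beside −0.01 for all 15204 tested genes. The 10742 other genes with at least 50 normalized counts in all 4 libraries also had a median of −0.01. In 193 members both FGF13Aoe libraries were above both control libraries, and in 23 members both were below; the shares over all tested genes were 36.2% and 37.5%. At the members' level of at least 50 counts in every library, 37.3% of genes lay above and 37.0% below in this way. No test of the list was run, and these counts describe it.

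**Figure D1:**
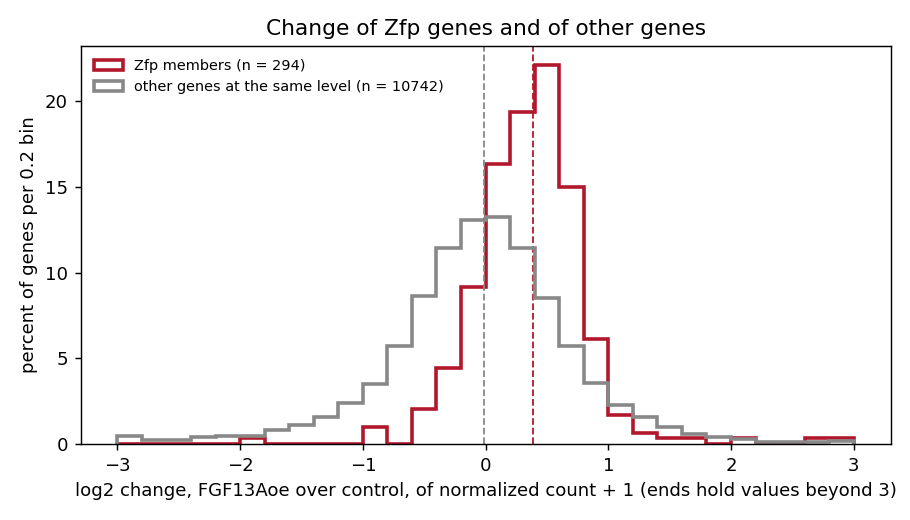
Distribution of the log2 change, FGF13Aoe over control, for the 294 members and for the 10742 other genes with at least 50 normalized counts in all 4 libraries, as percent of genes per bin; dashed lines mark the medians. The members' distribution is narrower and sits to the right, with its median at 0.39 beside −0.01.

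In the test of each gene, limma with Benjamini-Hochberg adjustment over all 15204 tested genes and a threshold of 0.05, 77 members were called higher in FGF13Aoe and 6 lower, and 211 were not called. The shares called over all tested genes were 16.2% higher and 19.1% lower, and at the members' level 17.6% and 18.0%. The members' shares were 26.2% and 2.04%. Of the 77, 65 had a change under 2-fold. Of members with a mean under 500 normalized counts, 50 of 216 (23.1%) were called higher and 3 lower, with a median log2 change of 0.39. Of those at 500 or more, 27 of 78 (34.6%) were called higher and 3 lower, with a median of 0.40. The other genes in these ranges had 13.8% and 20.6% called higher and medians of −0.02 and 0.00.

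These calls rest on both control libraries. Without control replicate 1, 6 members were called higher and 1 lower, and without control replicate 2, 8 and 1. The members' shares called higher were then 2.04% and 2.72%, under those of all tested genes, 3.62% and 5.06%. The direction moved less: 243 and 242 members were above 0, with medians of 0.41 and 0.34. Without FGF13Aoe replicate 1, 92 members (31.3%) were called higher and 5 (1.70%) lower, beside 15.0% and 20.2% of all tested genes. Without FGF13Aoe replicate 2 these were 66 (22.4%) and 12 (4.08%), beside 18.6% and 22.7%. Members above 0 then numbered 253 and 220, with medians of 0.45 and 0.27. Limma without its intensity trend called 46 members (15.6%) higher and 3 (1.02%) lower, beside 12.4% and 14.8% of all tested genes.

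**Figure D2:**
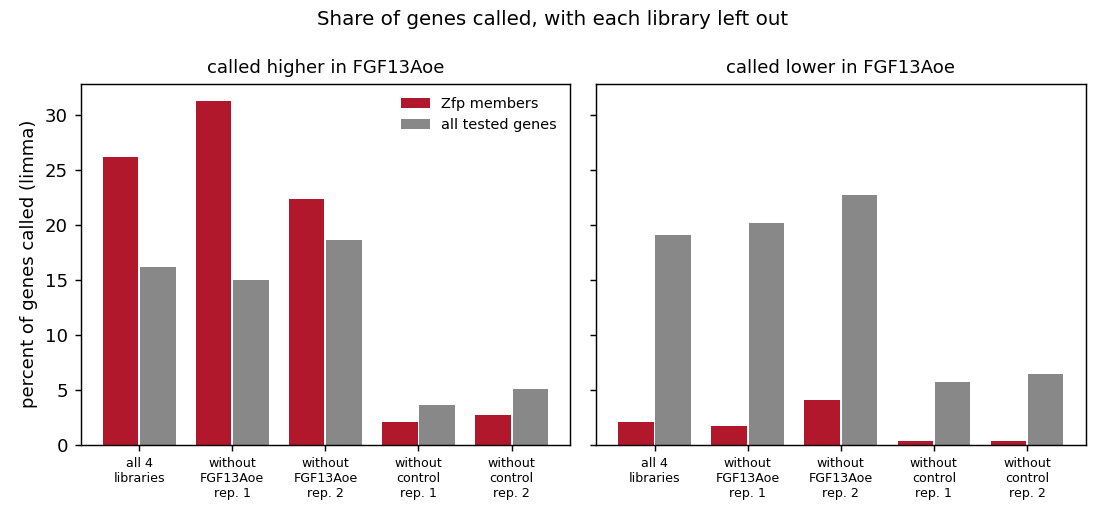
Percent of members and of all tested genes called higher (left) and lower (right) in FGF13Aoe by limma, with all 4 libraries and with each library left out in turn. With all 4 libraries 26.2% of members and 16.2% of all genes were called higher, and without control replicate 1 the shares were 2.04% and 3.62%.

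The 12 members with a called rise of at least 2-fold include factors of glia, of mRNA decay and of the KRAB family. These rises, and the falls below, were taken from called members whose groups do not overlap, so that lack of overlap is no finding. Zfp488, on chromosome 14 at 33967070 to 33978764 of GRCm38 on the minus strand, encodes a partner of Olig2 that promotes oligodendrocyte differentiation. It had 608 and 742 normalized counts in FGF13Aoe libraries, against 59.4 and 142 in control libraries. Both FGF13Aoe values were above both control values, and the control values differed from each other by more than 2-fold. It rose by 2.85 ± 0.41 log2 units (SE; limma adjusted p 0.00576), and by 2.23 without control replicate 1 and 3.48 without control replicate 2. Of the 50-base stretches in its transcripts, 15.6% also occur in another gene, so its reads are in part uncertain.

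Zfp395, on chromosome 14 at 65358389 to 65398930, is the mouse counterpart of human ZNF395, a gene induced by hypoxia. Its counts were 1597 and 575 in FGF13Aoe libraries, against 140 and 142 in control libraries. The groups did not overlap, but the FGF13Aoe libraries differed from each other by more than 2-fold. The log2 change of 2.76 ± 0.45 (SE; limma adjusted p 0.00856) became 2.02 without FGF13Aoe replicate 1 and 3.50 without FGF13Aoe replicate 2. Zfp36, on chromosome 7 at 28376784 to 28380253, encodes tristetraprolin, which binds AU-rich elements and promotes decay of the mRNAs of cytokines and growth factors. It had 839 and 227 counts in FGF13Aoe libraries, against 91.1 and 106 in control libraries. As with Zfp395, FGF13Aoe replicate 1 was the higher library, and the log2 change of 2.14 ± 0.58 (SE; limma adjusted p 0.0361) was 1.20 without that library and 3.08 without FGF13Aoe replicate 2.

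Zfp383, on the plus strand of chromosome 7 at 29908223 to 29916813, combined a large rise with a small spread. It had 639 and 531 counts in FGF13Aoe libraries, against 179 and 171 in control libraries. Replicates lay close together and the groups far apart, with a log2 change of 1.73 ± 0.16 (SE; limma adjusted p 0.00207). Its predicted protein has a KRAB-like match and 11 fingers. No 50-base stretch of its transcripts was shared with another gene.

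The promoters of Zfp488 and Zfp383 are shown because these members rose most without a wide spread between the FGF13Aoe libraries. Each window runs from 250 bases before to 50 after the transcription start, from RefSeq on GRCm38.p6, 5′ to 3′ on the gene's strand. Capitals mark matches, on either strand, to the GC box bound by Sp factors (GGGCGG), the CCAAT box (CCAAT), or the motifs of NRF1 (GCGC, then A and any base, then GCGC), ZNF143 (ACTACAA), YY1 (AAGATGGC), ETS factors (CCGGAAG) and the TATA box (TATAAA); no motif contains another. The Zfp488 window is chr14:33978715-33979014 on the minus strand and that of Zfp383 is chr7:29908267-29908566 on the plus strand.
Zfp488: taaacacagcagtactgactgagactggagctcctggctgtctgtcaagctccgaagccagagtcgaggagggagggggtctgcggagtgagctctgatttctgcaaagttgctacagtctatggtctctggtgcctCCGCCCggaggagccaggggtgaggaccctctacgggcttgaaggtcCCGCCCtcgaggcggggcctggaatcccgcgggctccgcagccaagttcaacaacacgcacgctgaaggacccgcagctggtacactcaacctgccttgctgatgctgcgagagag
Zfp383: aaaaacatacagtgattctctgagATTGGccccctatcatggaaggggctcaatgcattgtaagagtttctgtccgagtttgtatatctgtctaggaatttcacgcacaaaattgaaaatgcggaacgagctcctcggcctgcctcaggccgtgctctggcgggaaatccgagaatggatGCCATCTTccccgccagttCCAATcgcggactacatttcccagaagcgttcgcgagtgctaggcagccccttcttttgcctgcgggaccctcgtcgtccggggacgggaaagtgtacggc
The Zfp488 window holds 2 GC boxes and 16 CpG dinucleotides. The Zfp383 window holds 2 CCAAT boxes, 1 YY1 match and 20 CpGs, and shares no kind of match with that of Zfp488. A match is a run of letters and no evidence of binding.

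Zfp874b, a KRAB-like gene on chromosome 13, had 300 and 319 counts in FGF13Aoe libraries, against 101 and 114 in control libraries. The groups were well apart (log2 change 1.52 ± 0.18, SE; limma adjusted p 0.00371), but 19.5% of its exonic bases overlap another gene and 13.8% of its 50-base stretches are shared, most with its neighbour Zfp874a. Zfp516, which binds the promoter of Ucp1 and works with Prdm16 in brown fat, was the most abundant of the 12 by its mean. It had 1583 and 1265 counts in FGF13Aoe libraries, against 609 and 663 in control libraries. Its log2 change was 1.15 ± 0.15 (SE; limma adjusted p 0.00472).

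The other 6 large rises were Zfp949, Zfp438, Zfp28, Zfp964, Zfp182 and Zfp626, with log2 changes of 1.24, 1.21, 1.19, 1.14, 1.11 and 1.06. All but Zfp438 have a KRAB-like match. Zfp28 on chromosome 7 had 471 and 436 counts in FGF13Aoe libraries, against 203 and 193 in control libraries. Of its 50-base stretches 14.1% are shared with other genes, so its reads are in part uncertain. Zfp964 was the lowest, with 135 and 127 against 58.4 and 59.4. By the choice given above, the groups did not overlap in any of these 6. Of the 12 rises, 6 kept an adjusted p under 0.05 without control replicate 1, and the same 6 did without control replicate 2: Zfp488, Zfp395, Zfp383, Zfp874b, Zfp28 and Zfp516. The other 6 then had log2 changes of 1.01 to 2.03 with adjusted p of 0.0731 to 0.136, and of 1.02 to 2.25 with adjusted p of 0.0641 to 0.108.

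**Figure D3:**
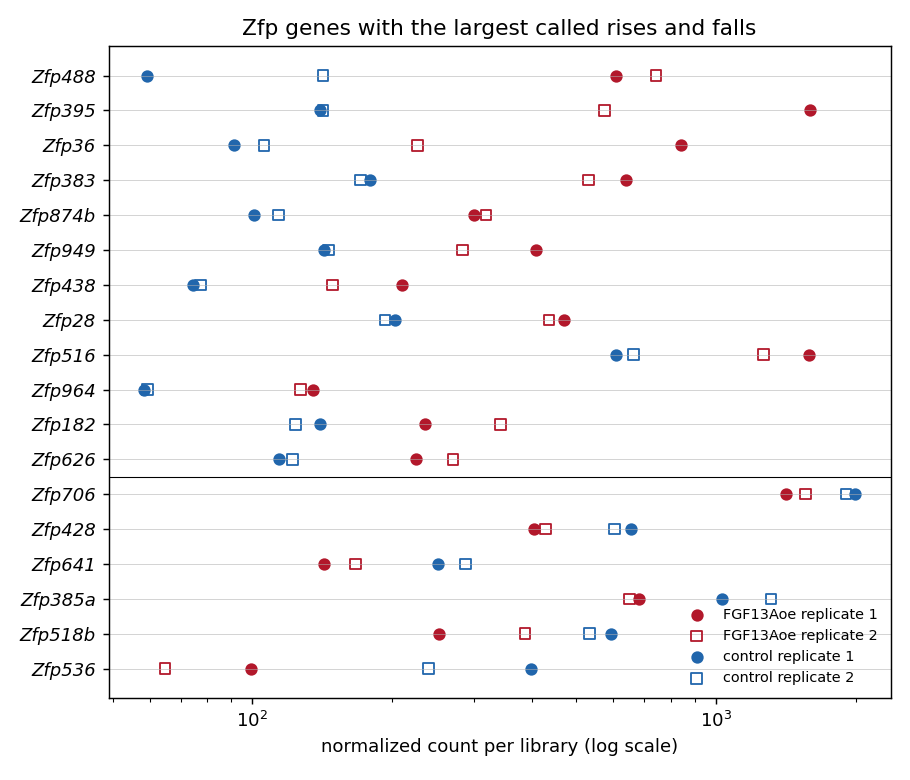
Normalized counts (log scale) of the 12 largest called rises, above the line, and the 6 called falls, below it, in each library; red marks are FGF13Aoe and blue marks control, filled circles replicate 1 and open squares replicate 2. Genes were taken only if their groups do not overlap, so red and blue marks are apart in every row. Replicates lie furthest apart in Zfp395 and Zfp36 among FGF13Aoe libraries and in Zfp488 among control libraries.

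Only 6 members were called lower, and Zfp536 was the sole member to fall by more than 2-fold. Zfp536, on the minus strand of chromosome 7 at 37472135 to 37773641, is a brain-enriched gene that represses neuronal differentiation when overexpressed in cultured cells. It had 99.1 and 64.8 normalized counts in FGF13Aoe libraries, against 399 and 240 in control libraries. The highest FGF13Aoe value was under the lowest control value, with a log2 change of −1.94 ± 0.33 (SE; limma adjusted p 0.00968). Neuronal markers, whose sums were also lower in FGF13Aoe libraries, were given above. The RefSeq promoter of Zfp536, chr7:37769703-37770002 on the minus strand, is printed for comparison with those of the rises; it holds 22 CpGs and no match to any of the 7 motifs.
Zfp536: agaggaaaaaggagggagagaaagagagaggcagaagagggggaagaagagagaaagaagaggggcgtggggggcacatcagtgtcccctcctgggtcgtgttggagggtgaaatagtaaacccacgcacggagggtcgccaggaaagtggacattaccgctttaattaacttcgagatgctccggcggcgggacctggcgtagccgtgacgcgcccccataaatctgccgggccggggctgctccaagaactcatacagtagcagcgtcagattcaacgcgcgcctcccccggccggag

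Zfp385a, a target of p53 that binds RNA and DNA, had 683 and 651 counts in FGF13Aoe libraries, against 1031 and 1314 in control libraries. All FGF13Aoe values were lower, by a log2 change of −0.80 ± 0.15 (SE; limma adjusted p 0.0129). Zfp518b, whose human counterpart is reported to associate with the methyltransferase G9a, had 253 and 387 against 594 and 534, and a log2 change of −0.85 ± 0.23 (SE; limma adjusted p 0.0345). Zfp641, the sole KRAB-like gene among the falls, had 143 and 167 counts in FGF13Aoe libraries, against 251 and 288 in control libraries, with a log2 change of −0.80.

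Zfp428 and Zfp706, both with a single predicted finger, fell least. Zfp428 had 405 and 429 counts in FGF13Aoe libraries, against 657 and 604 in control libraries (log2 change −0.59), and 17.7% of its exonic bases overlap another gene. Zfp706 had 1412 and 1559, against 1993 and 1907 (log2 change −0.39; limma adjusted p 0.0468). Zfp706 lost its call under 11 alternatives, among them the authors' deposited table, where its adjusted p was 0.0867. Without control replicate 1 only Zfp385a of the 6 kept its call, and the others had adjusted p of 0.0686 to 0.289. Without control replicate 2 only Zfp536 did, and the others had 0.106 to 0.221; without FGF13Aoe replicate 1 the sole loss was Zfp706, at 0.0626.

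The 8 most abundant members, by mean normalized count, were Zfp664, Zfp207, Zfp106, Zfp740, Zfp704, Zfp462, Zfp219 and Zfp638. Zfp664 was the highest, with 3132 and 3307 counts in FGF13Aoe libraries, against 2054 and 2140 in control libraries, a log2 change of 0.62 (limma adjusted p 0.0116). Zfp740 changed more, with 2714 and 3138 against 1484 and 1555 and a log2 change of 0.94 ± 0.13 (SE; limma adjusted p 0.00500). Zfp219, a cofactor of Sox9 in cartilage, had 2142 and 2105 against 1344 and 1462, a log2 change of 0.60 (limma adjusted p 0.0127). Of its exonic bases 12.7% overlap another gene. These 3 passed the test, with no overlap between groups. Per kilobase of exon, Zfp740 had the highest level of the 8 in FGF13Aoe libraries, at 575 normalized counts per kilobase against 298 in control libraries, and Zfp704 the lowest, at 111 against 155.

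Of the other 5, none passed the test. Zfp207 (BuGZ), which binds spindle microtubules and the checkpoint protein Bub3, had 2288 and 2949 counts in FGF13Aoe libraries, against 2102 and 2083 in control libraries. Its log2 change was 0.31 (limma adjusted p 0.161), and 0.49 with an adjusted p of 0.0192 without FGF13Aoe replicate 1. Zfp462, linked in humans to a neurodevelopmental disorder and in mouse cells to heterochromatin, had 1828 and 3102 against 1482 and 1653. With FGF13Aoe libraries so far apart its log2 change of 0.61 had an adjusted p of 0.113, which was 0.00545 without FGF13Aoe replicate 1. In the authors' deposited table Zfp462 had an adjusted p of 0.0433. Zfp106, which binds RNA of the GGGGCC repeat, had 2381 and 2021 against 2372 and 2376, overlapping values with a log2 change of −0.11. Zfp704 had 1400 and 1977 against 2719 and 2009, lower in both FGF13Aoe libraries (log2 change −0.49; limma adjusted p 0.136, and 0.0395 without FGF13Aoe replicate 2). Zfp638, whose human counterpart silences unintegrated retroviral DNA, had 1731 and 1974 against 1761 and 1560, with overlap and a log2 change of 0.16. Of exonic bases, 26.1% in Zfp106 and 16.6% in Zfp704 overlap another gene.

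Of 17 genes listed for neural and glial development, 16 were members. Of these, 4 were called higher and 1 lower, beside 26.2% and 2.04% of all members and 16.2% and 19.1% of all tested genes, and the median log2 change was 0.11. Zfp488 and Zfp536, described above, are both on it, at opposite ends, and Zfp219 is another of its 4 called rises. Zfp292, a large transcription factor linked to neurodevelopment in humans, had 1254 and 1131 counts in FGF13Aoe libraries, against 876 and 797 in control libraries (log2 change 0.51; limma adjusted p 0.0268). Zfp703, a transcriptional repressor studied in breast tissue, had 706 and 514 against 367 and 382 (log2 change 0.69; limma adjusted p 0.0349). Neither overlapped.

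Zfp423 and Zfp521 are related many-fingered partners of Ebf factors, and Zfp423 also works with BMP-activated Smads. Zfp423 had 321 and 353 counts in FGF13Aoe libraries, against 257 and 215 in control libraries, and Zfp521 had 678 and 778 against 548 and 573. In both all FGF13Aoe values were higher, but their adjusted p were 0.0605 and 0.0745. With each library centred on its median they were 0.0482 and 0.0495, and for Zfp521 without FGF13Aoe replicate 1 it was 0.0353. Zfp24, needed for myelination, had 1237 and 1654 against 1545 and 1665 (log2 change −0.17; adjusted p 0.0468 without FGF13Aoe replicate 2), and Zfp365, a Disc1-binding protein of the centrosome, had 1092 and 1230 against 1157 and 1237 (log2 change −0.05). Both overlapped between groups. Zfp335, mutated in human microcephaly, had 275 and 281 against 324 and 305 (log2 change −0.17), and 28.3% of its exonic bases overlap another gene.

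Of 11 genes listed for RNA binding, processing and translation, 10 were members. Limma called 1 of them higher, Zfp36, and 1 lower, Zfp385a, beside 16.2% and 19.1% of all tested genes and 26.2% and 2.04% of members. The median was 0.21. Zfp326, part of a complex that links elongation by RNA polymerase II to splicing, had 796 and 1175 counts in FGF13Aoe libraries, against 740 and 687 in control libraries. Zfp622, which acts in maturation of the large ribosomal subunit, had 418 and 333 against 304 and 264. The groups did not overlap in either, and neither passed the test with all libraries (log2 changes 0.44 and 0.40); Zfp326 had an adjusted p of 0.0113 without FGF13Aoe replicate 1.

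The imprinting and retroelement list gave 5 members of 8 genes. Of these, 1 (20.0%) was called higher and 0 lower, beside 16.2% and 19.1% of all tested genes. The median was 0.38. Zfp445, which with Zfp57 keeps methylation at imprinted regions, had 1429 and 1581 counts in FGF13Aoe libraries, against 1113 and 1027 in control libraries. It was the sole member of the list to pass the test (log2 change 0.49; limma adjusted p 0.0274). Zfp57 had 730 and 663 against 653 and 435 (log2 change 0.38; limma adjusted p 0.204). Its lowest FGF13Aoe value was just above its highest control value, and the control libraries lay well apart.

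Zfp809, which silences retroviral DNA, had 127 and 134 counts in FGF13Aoe libraries, against 106 and 129 in control libraries, with overlap. Zfp568, which represses a placental transcript of Igf2, had 132 and 168 against 130 and 146, also with overlap; their log2 changes were 0.15 and 0.11. Zfp932, a repressor of endogenous retroviruses with its neighbour Gm15446, had 518 and 812 against 427 and 364 (log2 change 0.72; limma adjusted p 0.0619, and 0.00909 without FGF13Aoe replicate 1). Its adjusted p in the authors' deposited table was 0.0248. Its transcripts share 37.0% of their 50-base stretches with other genes, most with Gm15446, so reads of this pair are uncertain. Zfp445 was no longer called when either control library was left out: its log2 change was 0.55 with an adjusted p of 0.143 without control replicate 1, and 0.43 with 0.214 without control replicate 2.

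All 18 genes listed for chromatin and general transcription were members. Of these, 4 (22.2%) were called higher and 1 (5.56%), Zfp518b, lower, beside 16.2% and 19.1% of all tested genes. The median was 0.14. Besides Zfp516 and Zfp740, the rises were Zfp827 and Zfp143. Zfp827, which brings the NuRD complex to telomeres in human cells, had 895 and 1012 counts in FGF13Aoe libraries, against 465 and 570 in control libraries (log2 change 0.89; limma adjusted p 0.00993). Zfp143, which binds promoters of many housekeeping genes and is found at chromatin loops, had 356 and 289 against 200 and 204 (log2 change 0.67; limma adjusted p 0.0333). Zfp91, an atypical ubiquitin ligase, had 1307 and 1387 against 1726 and 1718, lower in both FGF13Aoe libraries (log2 change −0.35; limma adjusted p 0.0532, and 0.0318 without FGF13Aoe replicate 2). Zfp687, which binds a complex with Zmynd8, had 1148 and 1400 against 909 and 982 (log2 change 0.42; limma adjusted p 0.0645, and 0.0192 without FGF13Aoe replicate 1).

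Leaving out a control library changed most of these smaller calls, and leaving out an FGF13Aoe library changed few or none. Outside the 12 largest rises, 8 members of the role lists or of the abundant genes were called higher: Zfp292, Zfp740, Zfp445, Zfp219, Zfp143, Zfp827, Zfp664 and Zfp703. Without control replicate 1 none of the 8 was called by limma, with log2 changes of 0.54 to 0.91 and adjusted p of 0.0606 to 0.184. Without control replicate 2, Zfp740 and Zfp827 were called and the others had adjusted p of 0.0898 to 0.214. Without FGF13Aoe replicate 1, Zfp703 and Zfp143 lost their calls, at adjusted p of 0.0524 and 0.0695.

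KRAB proteins act through partners. Of 25 tested genes of a list of 26 partners, 2 were called higher and 3 lower, beside 16.2% and 19.1% of all tested genes, and the median log2 change was −0.03. Trim28 had 3024 and 3240 counts in FGF13Aoe libraries, against 3064 and 3328 in control libraries, overlapping values with a log2 change of −0.03 ± 0.12 (SE; limma adjusted p 0.869). With each library centred on its median the log2 change was 0.04. Setdb1 had 1472 and 1540 against 1243 and 1285 (log2 change 0.25; limma adjusted p 0.124).

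The 3 falls were Uhrf1 and Dnmt1, which maintain DNA methylation, and Rbbp7, a histone-binding subunit of NuRD and other complexes. Uhrf1, which brings Dnmt1 to freshly copied DNA, had 253 and 305 counts in FGF13Aoe libraries, against 894 and 1404 in control libraries (log2 change −2.01; limma adjusted p 0.00375). Dnmt1 had 1246 and 1348 against 2095 and 2610 (log2 change −0.85; limma adjusted p 0.00969), and Rbbp7 had a log2 change of −0.82 (limma adjusted p 0.00522). Proliferation genes, 6 of 8 called lower, moved in the same direction, and their part was not tested. The 2 rises were Fam208a, the TASOR subunit of the HUSH silencing complex, with 992 and 872 against 627 and 642 (log2 change 0.55; limma adjusted p 0.0222), and Mta2 of NuRD, with a log2 change of 0.48 (limma adjusted p 0.0301). Of these 5, Uhrf1 and Dnmt1 kept their call without control replicate 1, where the adjusted p of Rbbp7 was 0.0557, that of Fam208a 0.164 and that of Mta2 0.212. Uhrf1 alone did without control replicate 2, where the adjusted p of Dnmt1 was 0.083, that of Rbbp7 0.0623, that of Fam208a 0.141 and that of Mta2 0.179.

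Proteins were predicted from GENCODE M21 coding sequences. A match to a KRAB A box was found in 164 members and not in 127, and 3 members, Zfp125, Zfp939 and Zfp783, have no coding sequence there. The number of C2H2 matches ranged from 0 to 36, with a median of 12 in KRAB-like members and 7 in the rest. Fingers below mean these matches, and other kinds of zinc finger were not counted.

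Members with and without a KRAB-like match had similar median changes and different spreads. KRAB-like members had a median log2 change of 0.39 with an SD of 0.36 over genes. Of these, 38 (23.2%) were called higher and 1 (0.61%) lower. The others had a median of 0.35 and an SD of 0.57, with 38 (29.9%) called higher and 5 (3.94%) lower. Over all tested genes 16.2% were called higher and 19.1% lower. The 3 largest rises, Zfp488, Zfp395 and Zfp36, and the largest fall, Zfp536, have no KRAB-like match. Members with 0 to 1 C2H2 matches numbered 16, with 6 (37.5%) called higher and 2 (12.5%) lower. Those with 13 or more numbered 90, with 21 (23.3%) called higher and 0 lower. Of these 90, 41 had an unadjusted p under 0.05, all higher; over all 15204 tested genes 7307 did, 3446 of them higher. DESeq2 and edgeR were run on 3 libraries and were not counted by class. Medians lay between 0.34 and 0.42 in all finger classes. Whether the classes differ was not tested.

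**Figure D4:**
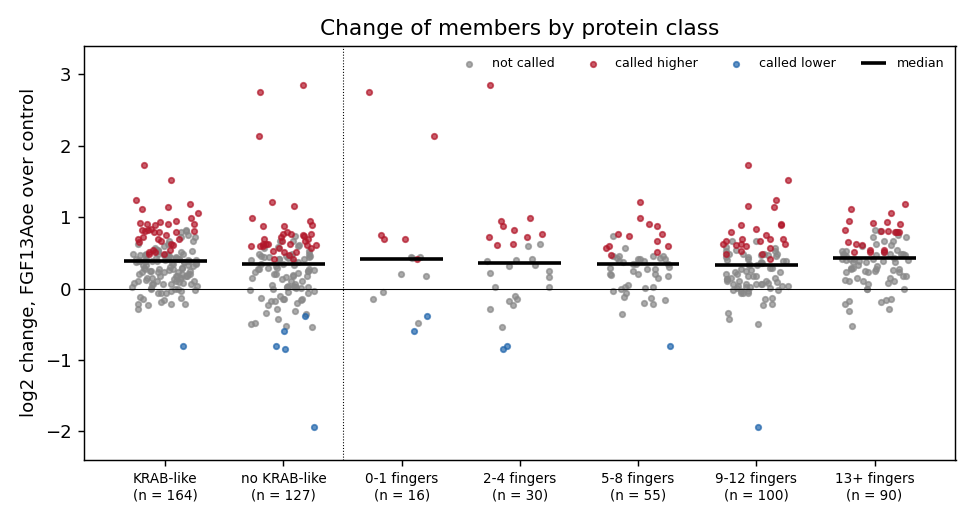
Log2 change, FGF13Aoe over control, of each member by KRAB-like match (left of the dotted line) and by number of predicted C2H2 fingers (right of it); colours mark members called higher, lower or not called by limma and black bars mark medians. The medians lie at 0.39 and 0.35 left of the dotted line and between 0.34 and 0.42 right of it, while the points spread furthest among members with few fingers.

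Members lie on 20 chromosomes. Over all tested genes 16.2% were called higher and 19.1% lower. Chromosome 7 holds 74 members, with 22 (29.7%) called higher, 2 (2.70%) lower and a median log2 change of 0.43. Chromosome 17 holds 36, with 3 (8.33%) called higher, 0 lower and a median of 0.22. On chromosomes 8 and 11, with 20 and 15 members, every member had a log2 change above 0 and 7 were called higher on each. Chromosome 15 was the most mixed, with 2 of 11 (18.2%) called higher and 3 (27.3%), Zfp385a, Zfp641 and Zfp706, called lower.

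**Figure D5:**
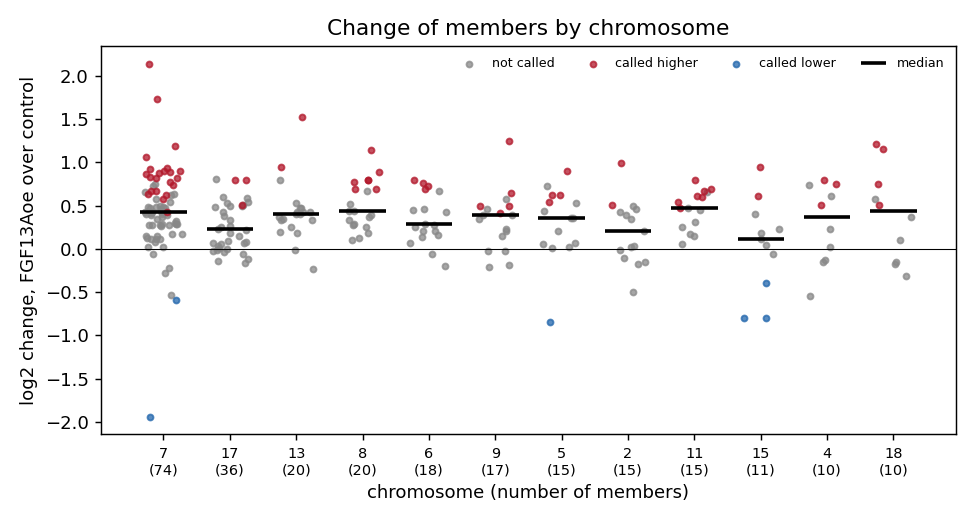
Log2 change, FGF13Aoe over control, of each member on the chromosomes that hold at least 10 members, ordered by number of members; colours mark members called higher, lower or not called by limma and black bars mark medians. The median is 0.43 on chromosome 7 and 0.22 on chromosome 17, and 3 of the 6 falls are on chromosome 15.

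Joining members with gaps of at most 500000 bases gave 12 clusters of at least 5 members, which hold 113 of the 294. Single members numbered 108, and 73 lay in groups of 2 to 4. Over all tested genes 16.2% were called higher. The cluster with the largest share of rises was at 6131491 to 6396915 of chromosome 7, where 4 of 5 members were called higher. In order they are Zfp787, Zfp444, Zfp667, Zfp583 and Zfp28. Zfp787 had 414 and 377 counts in FGF13Aoe libraries, against 206 and 271 in control libraries (log2 change 0.74; limma adjusted p 0.0300).

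Zfp444 had 509 and 576 counts in FGF13Aoe libraries, against 397 and 308 in control libraries (log2 change 0.63; limma adjusted p 0.0391). Zfp667 had 263 and 293 against 160 and 154 (log2 change 0.82; limma adjusted p 0.0167). Zfp583, the lowest of the 5, had 84.6 and 90.1 against 75.3 and 58.6 and was not called (log2 change 0.39; limma adjusted p 0.276). In all 5 both FGF13Aoe libraries were above both control libraries, as in 65.6% of members and 36.2% of all tested genes. This cluster was picked for its share of rises, so the direction of its members is in part given by that choice. Only Zfp28 kept its call without control replicate 1, and only Zfp28 without control replicate 2, where the others had adjusted p of 0.0867 to 0.202 and of 0.0684 to 0.246. Zfp787 lost its call without FGF13Aoe replicate 1, at 0.0692, and Zfp444 without FGF13Aoe replicate 2, at 0.0849.

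The promoters of the 4 called members of this cluster are shown because these genes lie in a single cluster, with the uncalled Zfp583 between Zfp667 and Zfp28. The windows are chr7:6155916-6156215 on the minus strand for Zfp787, chr7:6172263-6172562 on the plus strand for Zfp444, chr7:6286330-6286629 on the plus strand for Zfp667 and chr7:6383068-6383367 on the plus strand for Zfp28, from RefSeq on GRCm38.p6, with capitals for the same motifs.
Zfp787: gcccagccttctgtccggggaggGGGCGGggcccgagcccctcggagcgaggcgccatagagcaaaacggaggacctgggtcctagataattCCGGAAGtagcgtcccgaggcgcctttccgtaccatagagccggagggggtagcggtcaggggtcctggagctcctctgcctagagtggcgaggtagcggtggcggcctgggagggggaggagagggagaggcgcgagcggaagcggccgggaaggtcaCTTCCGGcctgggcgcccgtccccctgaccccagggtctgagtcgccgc
Zfp444: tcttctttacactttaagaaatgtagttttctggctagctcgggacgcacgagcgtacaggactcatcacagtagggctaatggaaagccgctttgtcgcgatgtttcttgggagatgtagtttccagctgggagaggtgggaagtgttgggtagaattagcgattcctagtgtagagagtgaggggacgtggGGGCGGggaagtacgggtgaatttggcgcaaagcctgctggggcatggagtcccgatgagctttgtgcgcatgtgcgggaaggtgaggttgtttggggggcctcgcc
Zfp667: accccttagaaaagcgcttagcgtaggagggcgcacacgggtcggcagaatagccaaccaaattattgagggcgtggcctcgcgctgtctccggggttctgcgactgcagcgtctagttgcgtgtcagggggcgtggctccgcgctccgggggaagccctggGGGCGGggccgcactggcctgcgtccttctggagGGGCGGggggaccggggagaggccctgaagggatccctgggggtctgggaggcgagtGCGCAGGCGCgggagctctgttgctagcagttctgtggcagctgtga
Zfp28: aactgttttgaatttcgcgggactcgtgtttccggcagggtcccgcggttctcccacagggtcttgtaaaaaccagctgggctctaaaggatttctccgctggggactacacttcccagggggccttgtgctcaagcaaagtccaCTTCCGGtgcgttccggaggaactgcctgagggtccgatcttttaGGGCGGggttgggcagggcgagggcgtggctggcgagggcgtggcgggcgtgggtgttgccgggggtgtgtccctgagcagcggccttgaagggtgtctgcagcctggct
All 4 windows hold a GC box, 2 of them in Zfp667. Zfp787 holds 2 ETS matches and Zfp28 holds 1, and Zfp667 alone of the 4 holds an NRF1 match. CpGs numbered 27, 16, 25 and 20 in this order.

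RefSeq windows were found for 245 members, 296 windows in all. The median member window had 16 CpGs, beside 7 over all 32851 windows of the table, which include genes that neurospheres do not express. A GC box was present in 47.3% of member windows and 35.7% of all windows. An ETS match was present in 20.9% of member windows and 8.86% of all, an NRF1 match in 9.80% and 4.60%, and a ZNF143 match in 7.09% and 3.24%. A YY1 match was present in 5.41% and 2.75%, a CCAAT box in 44.9% and 37.4%, and a TATA box in 6.08% and 13.6%. Among members, those called higher had 68 windows from 60 genes, and those not called had 222 windows from 180 genes. A CCAAT box was in 18 of the 68 windows and in 113 of the 222. A ZNF143 match was in 9 of 68 and in 12 of 222. For the other motifs the shares, in this order, were 44.1% and 47.7% for the GC box and 13.2% and 8.56% for NRF1. They were 5.88% and 5.41% for YY1, 17.6% and 22.1% for ETS and 7.35% and 5.41% for the TATA box. These shares were not tested.

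In 2 of the 12 clusters no member was called, where 16.2% of all tested genes were called higher and 19.1% lower. At 32765496 to 33631779 of chromosome 17, 0 of 13 members were called by limma with all 4 libraries, although 12 had a log2 change above 0; the median was 0.18. An unadjusted p under 0.05 was reached by 4 of these 13, beside the 7307 of 15204 tested genes given above. At 127233061 to 127885996 of chromosome 7, 0 of 9 members were called, with 3 at an unadjusted p under 0.05 and a median of 0.29. DESeq2 and edgeR were not counted by cluster. Neighbouring members differed in log2 change by a median of 0.34 over 144 adjacent pairs.

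Similar or overlapping sequence can make the read count of a member uncertain. Of the 294, 29 had over 10% of exonic bases inside another gene's exons and 37 had over 10% of 50-base stretches shared with another gene's transcripts. The 233 members with neither had 65 (27.9%) called higher and 5 (2.15%) lower, beside 16.2% and 19.1% of all tested genes. Their median log2 change was 0.39, the same median as that of all members. Replicates of a member differed by a median of 0.23 on the log2 scale in FGF13Aoe libraries and 0.12 in control libraries. A gap of more than 2-fold between replicates was seen in Zfp395, Zfp758 and Zfp36 in FGF13Aoe libraries and in Zfp488 in control libraries.

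At the edge of the level threshold, values were close on either side. Just inside lay Zfp551, with 67.7 and 62.8 counts in FGF13Aoe libraries, against 53.5 and 50.4 in control libraries, and Zfp786, with 66.5 and 85.0 against 90.1 and 51.3. Zfp975, Zfp758 and Zfp472 were the next 3 inside. Just outside lay Zfp69, with 49.5 and 50.6 counts in FGF13Aoe libraries, against 52.5 and 49.6 in control libraries, and Zfp595, with 82.2 and 89.1 against 49.5 and 54.5. Zfp114, Zfp607a and Zfp442 were the next 3 outside. A threshold of 20 in all 4 libraries took 335 Zfp genes, of which 82 were called higher and 7 lower. One of 100 took 235, with 66 and 5. All 351 tested Zfp genes gave 82 (23.4%) and 9 (2.56%), beside 16.2% and 19.1% of all tested genes.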

How the data were processed

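The authors deposited a single table with a normalized read signal per gene and library (gene counts divided by a size factor), and with their own log2 fold change, its standard error, a Wald score and p-values. STAR, DESeq2 and mm10 are named in the submitters' processing notes. Versions, annotation release and strand setting were not given in the sources used here. It is therefore not known how reads of overlapping and antisense genes were counted. No per-library column was left unused (0).

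Sample titles gave the groups and replicate numbers. Genes with at least 10 normalized counts in at least 2 libraries (15204) were compared by limma 3.58.1 in R 4.3.3 on log2(normalized count + 1), with an intensity trend, two-sided, with Benjamini-Hochberg adjustment over all of them and a threshold of 0.05. Log2 changes on this scale understate those of low genes. The method was tested on simulated data. Dividing by the smallest step of a library gave whole reads for 100% of values (tolerance 1e-06) and so the read totals. The step of control replicate 1, 0.991, was held to be too near 1 for its reads to be accepted. That of FGF13Aoe replicate 2, 1.012, is also near 1, but its reads were used. EdgeR 4.0.16 and DESeq2 1.42.0 were thus run without control replicate 1, on 3 libraries only. The lone control library was assumed to vary like the others. The chi-square between replicates, divided by its degrees of freedom, was 28.06 in FGF13Aoe and 11.17 in control, beyond sampling noise. The control value includes the reads of control replicate 1, which were not accepted for edgeR and DESeq2.

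Positions, coding sequences and exon overlaps came from GENCODE M21 on GRCm38, where all 400 Zfp genes were found. Fingers were counted as C, 2 to 4 residues, C, 12 residues, H, 3 to 5 residues, H. A KRAB A box profile was built with MAFFT 7.526 and HMMER 3.4 from 157 windows and searched at an E-value of 1e-04 in all isoforms. Shared sequence was counted in stretches of 50 bases.

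The members, the role and marker lists and the tests were chosen with earlier results of these data known. Members named were the 12 largest called rises and falls without overlap (6 falls existed), the 8 most abundant, members of the role lists and those beside the threshold. Some members that the rule took are not described. Neighbours in the chromosome 7 cluster and genes of other families were named after their values were seen. Alternatives changed the pseudocount, filter, scaling, trend, replicate block, libraries, test and level threshold.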

Additional observations from a re-analysis of the deposited data

How the results depend on the processing

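The count of members called higher was between 59 and 96 and that of members called lower between 5 and 9 under other pseudocounts, filters, scalings, level thresholds, both replicate blocks and the authors' deposited table. Without the intensity trend they were 46 and 3. Leaving out each library gave 6 to 92 members higher, 1 to 12 lower, 551 to 2822 of all tested genes higher and 867 to 3447 lower, with a member median of 0.27 to 0.45. With median centring the member median was 0.46. EdgeR on 3 libraries called 5 members higher and 1 lower, and 537 and 1086 of all genes; DESeq2 called 6 and 1, and 711 and 953; both gave a member median of 0.43. These fits hold 3 libraries, as do those that leave out a library of either group. With a lone control library the spread comes from the FGF13Aoe pair alone. The SD of the log2 difference between replicates was 0.586 in FGF13Aoe and 0.433 in control. What part this had in the counts was not tested. The fit with the replicate number as a block called 59 members higher and 5 lower, with 58 of the 77 and 5 of the 6 shared. Numbers in the titles name no shared litter. Over genes, the log2 difference between replicates 1 and 2 of FGF13Aoe correlated with that of control at −0.103. Replicate numbers are thus taken only as names. The crossed block, added after seeing the data, called 87 and 8 members, and 2816 and 3257 of all genes.

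Log2 changes that took both signs were near 0 and uncalled with all 4 libraries, and the cause was not tested. With median centring Zfp365 was 0.02 and Trim28 0.04. Leaving out each library gave −0.23 to 0.00 for Zfp106, −0.13 to 0.04 for Zfp365, −0.37 to 0.04 for Zfp24, −0.06 to 0.29 for Zfp568 and −0.09 to 0.03 for Trim28. With 2 libraries a group 211 members were not called, which does not show that they did not differ.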

Other observations

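Related zinc finger families outside the naming rule were counted with the same limma calls, which took 16.2% of all tested genes as higher and 19.1% as lower. Of 11 tested Zkscan genes, which carry a SCAN domain beside their fingers, 8 were called higher and 0 lower, with a median log2 change of 0.74. Zkscan3, a repressor of autophagy and lysosome genes in human cells, had 2514 and 2961 normalized counts in FGF13Aoe libraries, against 1830 and 1309 in control libraries (log2 change 0.82; limma adjusted p 0.0239). Zkscan17 had 1179 and 1120, against 592 and 668 (log2 change 0.87; limma adjusted p 0.00587). Of 10 Zscan genes, 3 were called higher and 0 lower, with a median of 0.39. Zbtb genes, which join fingers to a BTB domain, gave 2 higher and 3 lower of 39 and a median of 0.08. Zbtb18, a repressor needed for cortical neuron development, had 1441 and 1800 counts in FGF13Aoe libraries, against 3465 and 2771 in control libraries (log2 change −0.94; limma adjusted p 0.0114). The 14 Klf genes gave 3 higher and 3 lower. At the members' level, 6 of 9 Zkscan, 3 of 9 Zscan, 2 of 34 Zbtb and 3 of 11 Klf genes were called higher. Called lower were 0, 0, 2 and 2 of these, and the medians were 0.64, 0.45, 0.10 and 0.09. Klf15, a target of glucocorticoids, had 574 and 568, against 189 and 165 (log2 change 1.69; limma adjusted p 0.00194), and Klf6 had 950 and 657, against 1475 and 1503 (log2 change −0.91; limma adjusted p 0.0169). Of these 5 named genes, Zkscan3 and Klf15 were called without control replicate 1 and Zkscan17, Klf15 and Zbtb18 without control replicate 2, where the others had adjusted p of 0.0691 to 0.0942 and of 0.0946 to 0.147; without FGF13Aoe replicate 2 that of Zkscan3 was 0.0554.

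Among the 57 Zfp genes tested below the members' level, 5 (8.77%) were called higher and 3 (5.26%) lower, beside 16.2% and 19.1% of all tested genes. The 5 were Zfp429, Zfp953, Zfp418, Zfp455 and Zfp78, with log2 changes of 1.30, 1.24, 1.20, 1.13 and 1.09. Zfp78 lies on chromosome 7 between the members Zfp667 and Zfp28, and had 59.2 and 74.9 counts in FGF13Aoe libraries, against 29.7 and 31.7 in control libraries. The 3 called lower were Zfp979, Zfp750 and Zfp941, and Zfp979 had 1.21 and 1.01 counts, against 12.9 and 19.5. Zfp979 and Zfp750 passed the filter on low values only through the control libraries, so for them only a fall could be seen. By limma none of these 8 was called without control replicate 1 (adjusted p 0.0505 to 0.19) or without control replicate 2 (0.0719 to 0.224), 5 were without FGF13Aoe replicate 1 and 3 without FGF13Aoe replicate 2.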
